A study of Mus musculus with 4 samples.

Results

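Parvalbumin-type interneurons of the mouse medial prefrontal cortex were described here from single-nucleus RNA sequencing, as 380 nuclei with the highest mean score of 5 marker genes. The starting set was 13270 nuclei with at least 500 genes, at least 800 unique molecular identifiers (UMIs, 1 per captured RNA molecule) and at most 5% of UMIs from mitochondrial genes. A gate of at least 3 UMIs summed over Gad1, Gad2 and Erbb4 left 3044 nuclei. Each was scored by the mean of ln(1 + UMIs per 10000) over Pvalb, Btbd11, Tmem132c, Myo5b and Myo1e, and the 380 highest scores were taken. They made up 12.5% of the gated nuclei and 2.86% of all retained nuclei, and are called Pvalb-score nuclei below. The members were thus picked on measured values of these same nuclei. The clusters they were set against were also built from these nuclei, with most genes of the lists below left out. Every difference below is therefore a description and carries no test.

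The study gave mice the psychedelic DOI, an agonist of 5-HT2 receptors, or saline, and took the tissue 24 h after the injection. There were 2 DOI samples, FDOI from females and MDOI from males, and 2 saline samples, FSALINE from females and MSALINE from males. All were C57BL/6J at 9 weeks of age, and the prefrontal tissue of all 4 samples, controls included, expressed scFLARE2 with a TRE-mCherry-p2a-bReaChES reporter. scFLARE2 is a light- and calcium-dependent tool that releases the transcription factor tTA, which switches on the TRE promoter. The labels do not state how many mice each sample holds or which cells the constructs entered. The deposited matrix joins 4 libraries whose barcodes end in 1 to 4, and neither the labels nor the files used here say which sample an ending stands for. The values are therefore given per library, with no DOI against saline comparison, and no library was assigned to a sex or treatment.

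Parvalbumin interneurons are inhibitory cells of medial ganglionic eminence origin, mostly basket cells that contact the cell bodies of pyramidal neurons and chandelier cells that contact their axon initial segments. They fire brief action potentials at high rates, which rests on Kv3 potassium channels, release GABA with little delay, carry many mitochondria and are often wrapped in a perineuronal net of hyaluronan, proteoglycans and link proteins. In the prefrontal cortex they set the timing of pyramidal cell output, and some of them carry the 5-HT2A receptor through which DOI acts.

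The 4 libraries held 5721, 5278, 3076 and 8327 barcodes with 40322155, 39336793, 19968985 and 57947155 UMIs, and 50 barcode sequences occurred in more than 1 library, 1 of them among the Pvalb-score nuclei. The libraries gave 99, 98, 55 and 128 Pvalb-score nuclei, which was 2.30%, 2.76%, 3.45% and 3.35% of their retained nuclei. The median depth was 9831 UMIs and 3626 genes per Pvalb-score nucleus, against 5724 UMIs and 2544.5 genes in the other 2664 gated nuclei. RNA of other cells reached these nuclei: the excitatory gene Slc17a7 had a UMI in 47.9% of Pvalb-score nuclei and in 44.2% of oligodendrocyte-like nuclei, and Sst had one in 49.2% and 42.5%. The oligodendrocyte-like nuclei had a lower median depth of 2730 UMIs. With every nucleus thinned to 1500 UMIs, the shares were 12.6% and 25.9% for Slc17a7, and 11.8% and 25.4% for Sst. Shares of nuclei with a UMI of these genes were read as background.

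The 5 score genes, which chose the nuclei, are given as a description. Pvalb, the calcium buffer that names the class, had 52.1, 52.9, 53.3 and 56.8 CPM (UMIs per 1000000 UMIs of the group) in the Pvalb-score nuclei of libraries 1 to 4, and 9.34 CPM over the other gated nuclei. Pvalb RNA was sparse: 41.6% of the Pvalb-score nuclei had at least 1 UMI, against 6.64% of the other gated nuclei. Btbd11, the most abundant score gene in counts, had 934 CPM against 124 CPM, and Tmem132c had 337 CPM against 54.8 CPM. The unconventional myosin genes Myo5b and Myo1e had 151 and 228 CPM, against 16.5 and 34.2 CPM. At least 4 of the 5 genes were detected in 258 of the 380 nuclei. The score ended without a gap, at 0.820 for the last nucleus inside and 0.816 for the first outside, with 33 members within 0.05 above the boundary and 32 other nuclei within 0.05 below it.

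Clustering of all retained nuclei, named from marker lists, put 368 of the 380 nuclei into the cluster named Pvalb-like. The markers behind that name were the same 5 genes as the score, so this overlap follows in part from the rule. Of the other 12, 3 were in Sst-like clusters, 6 had a Scrublet doublet score above 0.25 and were put in no class, and 1 each in Vip-like, microglia-like and oligodendrocyte-like clusters. The cluster held 570 retained nuclei, so 197 gated nuclei with a Pvalb-like profile scored below the boundary and are used below as a nearest neighbour. The other gated nuclei were mixed, with 725 Sst-like, Vip-like or Lamp5-like interneurons (357, 232 and 136), 647 oligodendrocyte-like and 368 precursor-like nuclei, which pass through Erbb4. No Gad1 or Gad2 UMI was found in 14 of the Pvalb-score nuclei, 3.68%, against 1072 of the other gated nuclei, 40.2%. Gad1 and Gad2 are also gate genes, so the label was not checked independently of the rule. The 725 other interneurons are the main group the Pvalb-score nuclei are set against.

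**Figure D1:**
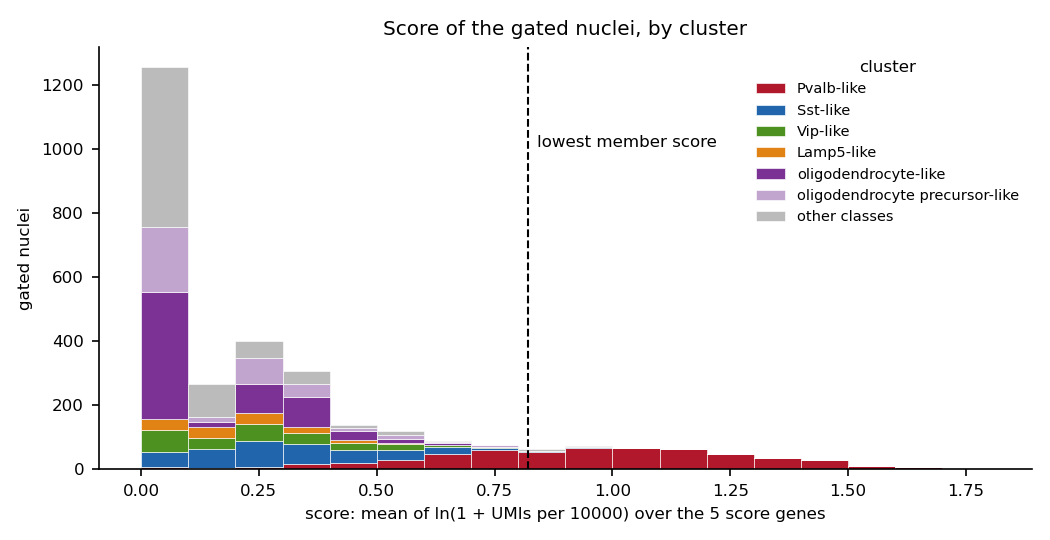
Histogram of the 5-gene score over the 3044 gated nuclei (x axis, mean ln(1 + UMIs per 10000)), with the number of nuclei on the y axis and bars stacked by cluster name. The dashed line marks the boundary at 0.820, and the nuclei to its right are almost all from the Pvalb-like cluster (368 of 380).

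Summed markers of other cell types were below those of the cells they mark. The 10 Vip-like markers summed to 205 CPM in Pvalb-score nuclei, between 126 and 239.5 CPM over libraries, against 18784 CPM in Vip-like nuclei, and the 10 Lamp5-like markers to 759 CPM against 6789.7 CPM in Lamp5-like nuclei. All 8 excitatory-like markers had UMIs and summed to 497 CPM, between 274 and 641 CPM over libraries, against 605 CPM in the other interneurons and 2093 CPM in excitatory-like nuclei. The 8 oligodendrocyte-like markers summed to 232 CPM in Pvalb-score nuclei and 199.8 CPM in other interneurons, and the 8 microglia-like markers to 151 CPM in Pvalb-score nuclei and 176 CPM in other interneurons. The Sst-like list summed to 3159.8 CPM against 6369.6 CPM in Sst-like nuclei, and of the Pvalb-score sum 2743 CPM were Nxph1, a neurexin ligand of several interneuron classes. Of the 4 chandelier cell markers, Unc5b had 10 UMIs and Pthlh had 7 over all Pvalb-score nuclei, while Vipr2 and Nkx2-1 had 0. A count of 0 over 380 nuclei allows a share of up to 0.789% of nuclei with a UMI, which does not limit the share that expresses the gene, and Vipr2 had 8 UMIs over all 725 other interneurons. The median depth of the other interneurons was 8594 UMIs. With all nuclei thinned to 1500 UMIs, 73 of the named genes past 2-fold against the other interneurons stayed past it, 45 did not, where fewer genes reach the UMI minimum, and 0 reversed. Named genes with no UMI left in a group gave no value.

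A gene is called past 2-fold here when it had at least 100 UMIs over both sides, a CPM ratio no smaller than 2 or no larger than 0.5, and one direction throughout the 4 libraries. The score and gate genes are left out of all such counts. Markers that named the other interneuron clusters stayed in, so their low ratios follow in part from the naming. Among them are Grin3a and Elfn1 for Sst-like, and Prox1, Npas1, Penk and Tac2 for Vip-like nuclei. Npy, Sv2c and Fgf13 are such markers for Lamp5-like nuclei. Against the other interneurons, 353 of 9747 genes were past 2-fold higher in the Pvalb-score nuclei, a background of 3.62%, and 574 were past 2-fold lower, 5.89%. Over the 9747 genes the median log2 ratio was -0.01. Ratios are log2 of CPM in Pvalb-score nuclei over CPM in the group named, and their 95% intervals reflect the counting of UMIs alone, so the spread between mice is not in them.

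Outside the marker lists and among genes with at least 500 UMIs, the gene furthest on the high side was Slit2, a secreted axon guidance ligand for Robo receptors. Slit2 had 757, 677, 859.6 and 743 CPM in the Pvalb-score nuclei of libraries 1 to 4, against 86.8, 30.6, 28.2 and 35.7 CPM in the other interneurons, so the groups did not overlap by a wide margin. The log2 ratio was 4.004 (95% counting interval 3.84 to 4.17), and 93.7% of the Pvalb-score nuclei held a UMI of it. Next came Frmpd1, a scaffold of G-protein regulators, with 140.2 CPM against 10.2 CPM and a log2 ratio of 3.78. Cemip, which binds and helps to break down hyaluronan, had 545, 399, 513 and 441 CPM in Pvalb-score nuclei and 55.8, 50.5, 26.0 and 40.4 CPM in other interneurons, a log2 ratio of 3.36 (95% counting interval 3.18 to 3.53). The transcription factors Mitf and Sox5 had log2 ratios of 2.80 and 2.35, and the Rac activator Dock4 and the kinase Nek7 had 2.70 and 2.64. On the low side, Pde11a, a phosphodiesterase for cyclic nucleotides, had 3 UMIs in all Pvalb-score nuclei, 0.742 CPM, against 136 CPM. Other large low ratios were those of the growth factor receptor gene Egfr at -6.27, the semaphorin Sema3c at -5.78, the cation channel gene Trpm3 at -5.54 and the AMPA receptor partner Shisa6 at -5.23.

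Promoter sequences are shown for the class's namesake, Pvalb, and for Syt2 and Esrrg, to set the start regions of these genes side by side. Syt2 and Esrrg were past 2-fold higher against each of the Sst-like, Vip-like and Lamp5-like classes. So were Slit2, Scn9a, Ppargc1a, Cplx1 and Tac1, whose windows are not shown and held neither motif defined below. Each runs from 250 bases before to 50 bases after an annotated start, 5′ to 3′ on the gene's strand, from RefSeq on GRCm38.p6. Capitals mark a match, on either strand, to AAGGTCA, the site of estrogen-related receptors, or to the core of the MEF2 site, CTA and TAG with any 4 bases between them. These factors were chosen because Esrrg and Mef2c were themselves past 2-fold higher.
Pvalb, chr15:78206351-78206650, minus strand: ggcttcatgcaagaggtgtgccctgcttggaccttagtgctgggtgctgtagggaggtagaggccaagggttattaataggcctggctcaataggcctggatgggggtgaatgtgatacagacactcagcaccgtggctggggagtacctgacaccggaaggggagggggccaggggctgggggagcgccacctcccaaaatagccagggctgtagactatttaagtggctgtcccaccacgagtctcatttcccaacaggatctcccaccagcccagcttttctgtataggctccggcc
Syt2, chr1:134646362-134646661, plus strand: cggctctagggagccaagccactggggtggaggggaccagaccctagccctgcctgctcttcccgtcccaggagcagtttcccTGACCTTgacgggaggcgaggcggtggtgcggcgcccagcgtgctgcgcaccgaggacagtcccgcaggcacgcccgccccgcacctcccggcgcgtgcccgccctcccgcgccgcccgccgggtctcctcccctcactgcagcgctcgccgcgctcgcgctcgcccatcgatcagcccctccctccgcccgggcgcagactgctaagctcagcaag
Esrrg, chr1:187608756-187609055, plus strand: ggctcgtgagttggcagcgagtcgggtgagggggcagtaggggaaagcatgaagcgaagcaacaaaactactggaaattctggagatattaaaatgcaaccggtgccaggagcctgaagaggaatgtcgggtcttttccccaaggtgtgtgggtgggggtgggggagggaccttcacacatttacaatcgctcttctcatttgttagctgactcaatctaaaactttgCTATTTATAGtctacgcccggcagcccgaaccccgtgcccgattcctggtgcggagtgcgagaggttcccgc
The Pvalb window held neither motif, the Syt2 window held TGACCTT, which is AAGGTCA read from the other strand, and the Esrrg window held CTATTTATAG. None of the 3 windows held both motifs, so no matches overlapped. RefSeq lists further starts for these genes, 1 more for Pvalb, 1 more for Syt2 and 3 more for Esrrg, and none of those windows held either motif. Over all 32851 promoters AAGGTCA occurred in 4.72% and the MEF2 core in 3.69%. In the promoters of genes past 2-fold higher than in the other interneurons they occurred in 14 of 352 (3.98%) and 13 of 352 (3.69%). The shares were 3.24% and 3.15% over the promoters of all genes assessed, and 4.06% and 3.17% over those of genes past 2-fold lower, so the shares of the higher genes stood close to the background. A match is a string of letters and was not shown to be a bound site.

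Ion channels of the fast-spiking type had more genes on the high side than any other list. Of 29 listed genes 26 could be assessed against the other interneurons, and 8 were past 2-fold higher and 4 lower, with a median log2 ratio of 0.75 against -0.01 over all genes. The Kv3 channel gene Kcnc1 had 437, 327, 372 and 310.1 CPM in Pvalb-score nuclei, against 145, 121, 128 and 119 CPM in other interneurons, a log2 ratio of 1.47 (95% counting interval 1.35 to 1.59). Its relative Kcnc2 had 4773, 5067, 4723 and 4697 CPM against 1731, 1581, 1706 and 1636 CPM, a log2 ratio of 1.54 (95% counting interval 1.51 to 1.57). Kcnc1 lies at chr7:46396497-46438704 and Kcnc2 at chr10:112271121-112467024, both on the plus strand of mm10 in GENCODE M21. For both genes each library's Pvalb-score value lay above each library's value in other interneurons. Kcnc2 showed a graded order, with a log2 ratio of 3.52 against Lamp5-like, 2.54 against Vip-like and 0.91 against Sst-like nuclei, so the Sst-like nuclei came nearest and were not past 2-fold. Kcnc4 stood at -0.63 and was not past 2-fold.

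The other high channel genes act on repolarisation or excitability. Kcna1, the Kv1.1 channel of axons, had 243, 154, 288 and 197 CPM in Pvalb-score nuclei and 65.2, 68.4, 82.4 and 82.1 CPM in other interneurons, a log2 ratio of 1.53, and it was past 2-fold against each of the Sst-like, Vip-like and Lamp5-like classes. The Kv1 accessory subunit Kcnab3 had 23.0 CPM against 3.39 CPM in other interneurons, where it had 23 UMIs. Kcnip2, a partner of A-type Kv4 channels, had 72.4 CPM against 19.3 CPM. Among sodium channels, Scn9a (Nav1.7, chr2:66480080-66634962, minus strand) had 569, 516, 683 and 508 CPM in Pvalb-score nuclei and 109, 110.2, 183 and 93.8 CPM in other interneurons, a log2 ratio of 2.29 (95% counting interval 2.17 to 2.40). It was past 2-fold against each of the 3 classes, at 2.27, 1.97 and 3.07 for Sst-like, Vip-like and Lamp5-like. Scn1a, the sodium channel gene best known from Pvalb interneurons, had 484 CPM against 278 CPM, a log2 ratio of 0.80 that was not past 2-fold. The calcium channel subunit Cacna2d2 had a log2 ratio of 1.46, which rested on the Vip-like and Lamp5-like classes (4.51 and 3.58) and was 0.64 against Sst-like nuclei. On the low side were the sodium-activated potassium channel gene Kcnt2 at -2.27, the R-type calcium channel gene Cacna1e at -1.86, and the sodium channel genes Scn3a and Scn3b at -1.07 and -1.45. Kcnt2 and Cacna1e were past 2-fold lower against all 3 classes. The list gave 7 higher and 4 lower of 26 against Sst-like (backgrounds 4.17% and 4.41%), 12 and 4 of 26 against Vip-like (7.66% and 5.7%), and 6 and 3 of 25 against Lamp5-like nuclei (6.68% and 5.03%).

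**Figure D2:**
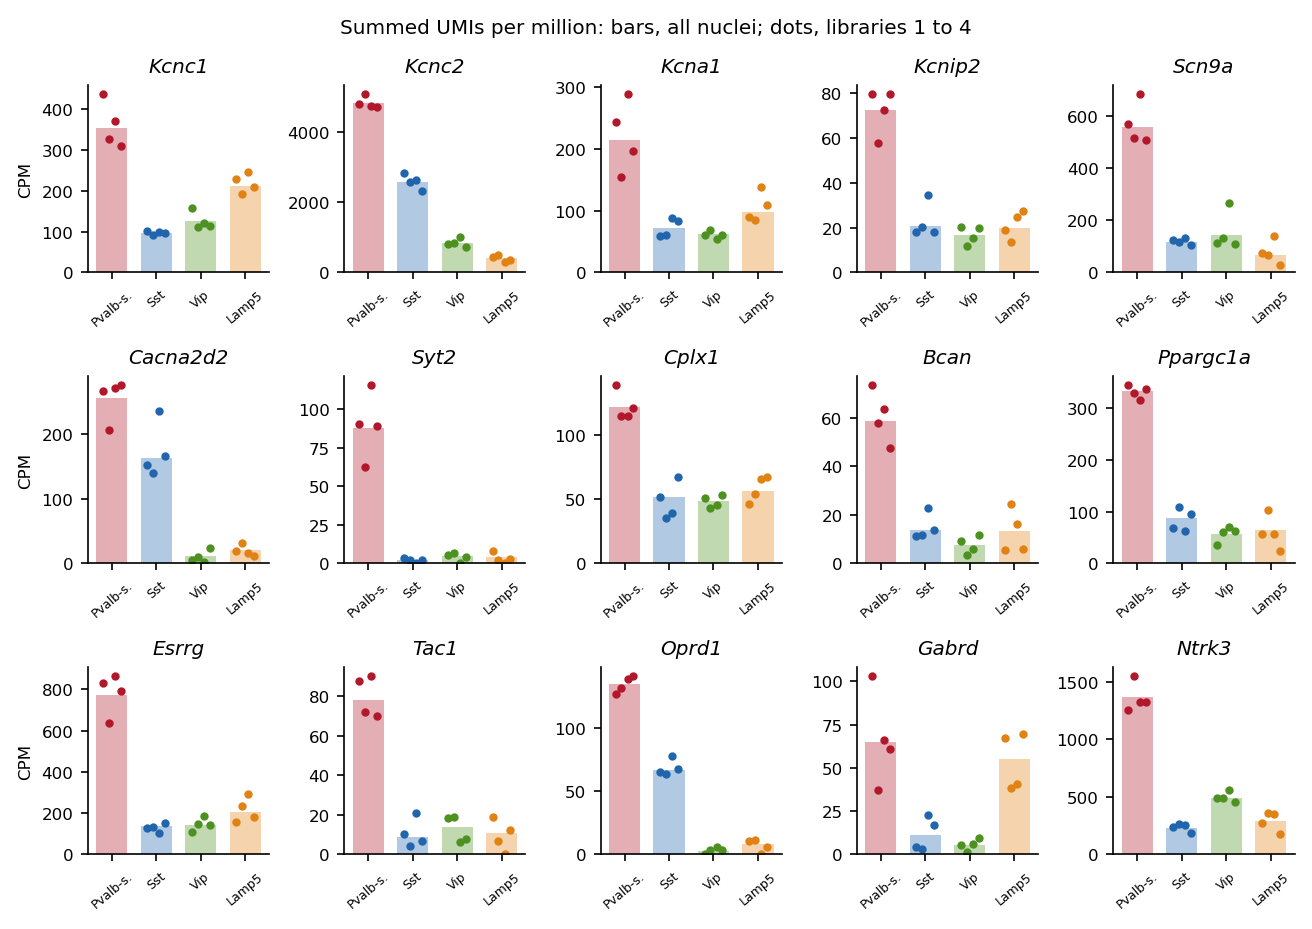
CPM (y axis, linear, starting at 0) of 15 genes of the text, with bars for all nuclei of a class and points for libraries 1 to 4, in Pvalb-score nuclei (Pvalb-s.) and in the Sst-like, the Vip-like and the Lamp5-like nuclei (Sst, Vip, Lamp5). The Pvalb-score points of Kcnc1 (310.1 to 437 CPM), Scn9a (508 to 683 CPM) and Syt2 (62.5 to 116 CPM) all lie above those of the other classes.

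Perineuronal net genes did not move as a block against the other interneurons. Of 24 listed genes 10 could be assessed, with 1 past 2-fold higher, 3 lower and a median log2 ratio of -0.09. The counts differed by class. Of 8 genes assessed against Sst-like nuclei, 3 were past 2-fold higher and 0 lower, with a median of 0.24. Against Vip-like nuclei 2 were higher and 1 lower of 7, with a median of 0.38. For Lamp5-like nuclei the counts were 2 and 3 of 9, with a median of -0.91. Bcan, the proteoglycan brevican, had 73.5, 57.7, 63.5 and 47.3 CPM in Pvalb-score nuclei and 9.40, 12.2, 15.8 and 12.2 CPM in other interneurons, with no overlap and a log2 ratio of 2.30 (95% counting interval 1.93 to 2.68). Acan, the aggrecan of mature nets, had 31 UMIs in Pvalb-score nuclei, 7.66 CPM, against 3 UMIs and 0.442 CPM in other interneurons, under the 100 UMIs needed for a call. The matrix protease Adamts15 likewise had 78 UMIs against 7, and the link protein Hapln4 had 14.1 CPM against 4.42 CPM. Tnr, which cross-links the net, had 545 CPM against 299.8 CPM and was past 2-fold against Vip-like (1.71) and Lamp5-like nuclei (1.08) but stood at 0.86 over all 3 classes. Vcan, versican, and Hapln1 were lower at -3.79 and -2.21, and both were high in Lamp5-like nuclei, with 125 and 182 CPM. With the Lamp5-like nuclei left out, Hapln1 stood at 0.22 and was no longer lower. Ptprz1, a receptor phosphatase that binds net proteoglycans, was the third gene past 2-fold lower, at -1.02.

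Of 23 calcium-binding and calcium-handling genes besides Pvalb, 21 could be assessed, none was past 2-fold higher and 3 were lower, with a median of -0.33. The 3 were Necab1 (-1.37) and Necab2 (-2.97), which are neuronal calcium-binding proteins, and the exchanger Slc24a3 (-1.54). Necab1 split the classes, being past 2-fold higher against Sst-like nuclei at 1.36. The calbindin gene Calb1 was at -0.35, and calretinin, Calb2, had 2 UMIs in all Pvalb-score nuclei.

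Among 32 genes of GABA synthesis and vesicle release, 30 could be assessed, 3 were past 2-fold higher and 5 lower, and the median was -0.06. The 3 high genes act at the same step, calcium-triggered fusion of vesicles. Syt2, the fast calcium sensor of Pvalb basket cell terminals, had 90.04, 62.5, 116 and 88.8 CPM in Pvalb-score nuclei and 4.98, 3.57, 0 and 2.82 CPM in other interneurons. No library of the other interneurons came near those values, and the log2 ratio was 4.75 (95% counting interval 4.13 to 5.45). A Syt2 UMI was found in 40.3% of Pvalb-score nuclei. The complexin gene Cplx1 had 139, 114, 114 and 121 CPM against 50.3, 41.8, 45.2 and 63.8 CPM, a log2 ratio of 1.24, and was past 2-fold against all 3 classes. Vamp1, a vesicle SNARE, had 19.8 CPM against 8.11 CPM. The paralog Cplx2 was past 2-fold lower at -1.20. Unc13c, a vesicle priming factor, and Sv2c, a vesicle protein, were lower at -5.11 and -3.68, each mainly through 1 class, with 341 CPM of Unc13c in Sst-like and 468 CPM of Sv2c in Lamp5-like nuclei. The vesicular GABA transporter Slc32a1 had 40.8 CPM against 36.3 CPM. The GABA reuptake transporter Slc6a11 was lower at -1.69, and the active-zone gene Rims3 at -1.13.

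Of the listed genes that direct the supply of mitochondria, 3 were past 2-fold higher, while Esrra, Ppara, Tfam and Nrf1 were not. None of the listed respiratory chain genes was past 2-fold higher. Of 28 listed genes 25 could be assessed, 3 were past 2-fold higher and 0 lower, with a median of 0.19. The 3 were Ppargc1a and Ppargc1b, coactivators of mitochondrial biogenesis, and their nuclear receptor partner Esrrg. Ppargc1a (chr5:51454250-51567726, minus strand) had 344, 329, 314 and 335 CPM in Pvalb-score nuclei against 55.8, 92.9, 64.3 and 77.0 CPM in other interneurons, a log2 ratio of 2.16 (95% counting interval 2.01 to 2.31). Esrrg had 832, 639, 865 and 790.5 CPM against 129, 161, 163 and 155 CPM, a log2 ratio of 2.36 (95% counting interval 2.26 to 2.46). Both separated in every library and against each class, Ppargc1a at 1.91, 2.57 and 2.36 and Esrrg at 2.51, 2.43 and 1.92 for Sst-like, Vip-like and Lamp5-like. Ppargc1b had 111 CPM against 49.1 CPM. The cytochrome oxidase gene Cox4i1 had 184 CPM against 186 CPM, and Cox6a2, a cytochrome oxidase subunit reported in Pvalb cells, had 21 UMIs. The share of mitochondrial UMIs had a median of 1.39% in Pvalb-score nuclei and 1.68% in other interneurons.

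Of 28 transcription factors of the interneuron lineages 21 could be assessed, with 2 past 2-fold higher, 7 lower and a median of -0.16. By class, 2 were higher and 3 lower of 17 against Sst-like, 8 and 7 of 20 against Vip-like, and 3 and 5 of 17 against Lamp5-like nuclei. Mef2c, a MADS-box factor of developing Pvalb cells, had 1449, 1153, 1432 and 1407 CPM against 620.4, 686, 543 and 614 CPM, a log2 ratio of 1.11, and Etv1 had 1.01. Lhx6 and Sox6, which specify cells of the medial ganglionic eminence, were past 2-fold higher against Vip-like nuclei at 6.80 and 6.73, and against Lamp5-like nuclei at 1.99 and 3.11. Against Sst-like nuclei, which share that origin, Sox6 was at -0.07 and Lhx6 at -0.20. Satb1 showed the same split, at 2.96 against Vip-like, 4.35 against Lamp5-like and -0.68 against Sst-like nuclei. The factors of the caudal ganglionic eminence were lower, Prox1 at -5.38, Nr2f2 at -4.84 and Npas1 at -5.80 against all other interneurons. Prox1 and Npas1 were also markers that named the Vip-like cluster. Tox, Npas3, Dlx1 and Dlx6 were also past 2-fold lower, between -3.48 and -1.21.

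Of 31 genes of neuropeptides and their receptors 14 could be assessed, with 2 past 2-fold higher, 7 lower and a median of -0.95. By class, 1 was higher and 5 lower of 11 against Sst-like, 3 and 4 of 10 against Vip-like, and 3 and 2 of 8 against Lamp5-like nuclei. Tac1, the precursor of substance P, had 87.7, 72.1, 90.2 and 69.9 CPM in Pvalb-score nuclei and 14.4, 9.18, 12.4 and 7.98 CPM in other interneurons, a log2 ratio of 2.88 (95% counting interval 2.51 to 3.27), past 2-fold against each class. The cholecystokinin receptor gene Cckbr was higher at 1.13. The peptide genes Npy (-1.49), Penk (-1.85) and Tac2 (-4.03) were lower, as were the neuronal nitric oxide synthase Nos1 (-2.73), the neuropeptide Y receptor Npy1r (-2.67), the substance P receptor Tacr1 (-3.24) and the TRH-degrading enzyme Trhde (-2.51). Npy still had 67.0 CPM in Pvalb-score nuclei, against 188 CPM, and its UMIs can include RNA from outside the nuclei.

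Of 29 genes of ionotropic glutamate receptors 26 could be assessed, with 1 past 2-fold higher, 8 lower and a median of -0.42. By class, 2 were higher and 7 lower of 25 against Sst-like, 5 and 6 of 25 against Vip-like, and 0 and 2 of 24 against Lamp5-like nuclei. The high gene was Gsg1l, an auxiliary subunit of AMPA receptors, at 1.23. Gria4, the fast AMPA receptor subunit of Pvalb cells, had 2226 CPM against 1172 CPM, a log2 ratio of 0.93 just under the limit, and was past 2-fold against Vip-like nuclei at 1.47. The NMDA receptor subunit Grin3a had 43.8, 48.1, 54.6 and 38.6 CPM in Pvalb-score nuclei and 519.7, 603, 566 and 697 CPM in other interneurons, a log2 ratio of -3.74 (95% counting interval -3.96 to -3.53). Its level in Sst-like nuclei was 1049 CPM, and it was a marker that named them. Grin2a was lower at -1.45, though at -0.07 against Vip-like nuclei alone. The kainate receptor genes Grik3 and Grik4 and their partner Neto1 were lower at -1.42, -1.57 and -1.47, and the AMPA receptor auxiliary genes Cacng3 and Cacng4 at -1.10 and -2.99.

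Of 10 metabotropic glutamate receptor and Homer genes 8 could be assessed, 0 were past 2-fold higher and 5 lower, and the median was -1.66. The Gi-coupled receptor genes Grm7, Grm8 and Grm4 stood at -1.45, -2.61 and -2.80, and the scaffold Homer2 at -1.87. The Gq-coupled Grm5 was at 0.36. The counts differed by class: of 7 genes assessed against each class, 0 were past 2-fold higher and 3 lower against Sst-like, 2 and 4 against Vip-like, and 1 and 1 against Lamp5-like nuclei.

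GABA receptor subunits differed in composition. Of 16 genes 15 could be assessed, with 2 past 2-fold higher, 1 lower and a median of 0.18. Gabrd, the delta subunit of extrasynaptic receptors, had 103, 37.5, 66.0 and 61.1 CPM in Pvalb-score nuclei and 17.7, 10.7, 19.2 and 23.5 CPM in other interneurons, a log2 ratio of 1.87 (95% counting interval 1.56 to 2.20). Its value in library 1 was the highest of the 4 and in library 2 the lowest, and it was 0.23 against Lamp5-like nuclei. Gabra2 had 53.3, 79.8, 62.2 and 54.6 CPM against 292, 271, 251 and 258 CPM, a log2 ratio of -2.11 (95% counting interval -2.31 to -1.92), and was past 2-fold lower against all 3 classes.

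**Figure D3:**
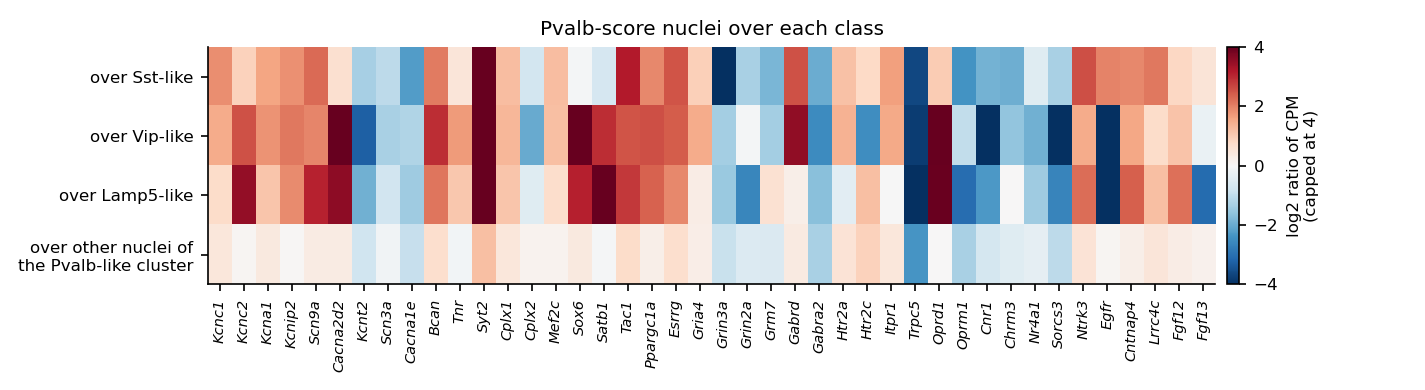
Log2 ratios of CPM in Pvalb-score nuclei over the Sst-like, the Vip-like and the Lamp5-like nuclei and over the other nuclei of the Pvalb-like cluster (rows), for genes of the text (columns), with colours capped at 4 on either side of 0. Kcnip2, Scn9a, Syt2, Ppargc1a and Esrrg are higher against the first 3 classes, Sox6 is near 0 against Sst-like (-0.07) and far higher against Vip-like nuclei (6.73), and the bottom row is pale for most genes.

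Among serotonin receptors, 6 of 14 genes had enough UMIs to be assessed, 0 were past 2-fold higher and 2 lower than in the other interneurons, with a median of -0.38. Htr2a, which encodes the 5-HT2A receptor through which DOI acts, lies at chr14:74640840-74709494 on the plus strand. It had 75.8, 63.5, 60.9 and 76.4 CPM in the Pvalb-score nuclei of libraries 1 to 4, against 35.4, 45.4, 47.4 and 39.9 CPM in other interneurons. Every library was higher in Pvalb-score nuclei, and the log2 ratio of 0.76 (95% counting interval 0.52 to 1.01) was not past 2-fold. By class, Htr2a had 93.0 CPM in Lamp5-like, 30.7 CPM in Sst-like and 26.9 CPM in Vip-like nuclei. The log2 ratio was -0.41 against Lamp5-like nuclei, and past 2-fold at 1.19 against Sst-like and 1.38 against Vip-like nuclei. A UMI of Htr2a was found in 46.6% of Pvalb-score nuclei at a median of 9831 UMIs, against 24.4% of other interneurons at 8594 UMIs and 2.71% of oligodendrocyte-like nuclei at 2730 UMIs. Thinning every nucleus to 1500 UMIs left out 0 Pvalb-score, 1 other interneuron and 43 oligodendrocyte-like nuclei below that depth. The shares were then 10.0%, 6.63% and 1.15%, so Htr2a in the Pvalb-score nuclei lay above the background of free RNA. Of the 197 Pvalb-like nuclei below the score boundary, 28.4% had a UMI of Htr2a, at a median of 8370 UMIs. After thinning their share was 5.61%. Both values were nearer to those of the other interneurons than to those of the Pvalb-score nuclei.

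Htr2c, the related Gq-coupled receptor, had 92.4, 126, 78.7 and 82.2 CPM in Pvalb-score nuclei and 223, 208, 238 and 127 CPM in other interneurons, a log2 ratio of -1.01 (95% counting interval -1.17 to -0.84). It was lower in each library, but the ratio was close to the limit and stood at -0.90 without library 1 and -0.89 without library 3. The Vip-like nuclei carried most of it at 531 CPM, and against Lamp5-like nuclei it was past 2-fold higher at 1.21. Htr7, a Gs-coupled receptor, was lower at -1.37 with 12.4 CPM against 32.0 CPM. Htr1f, coupled to Gi, had 151 CPM against 138 CPM, with 1.30 against Vip-like and -1.36 against Lamp5-like nuclei. Htr4, coupled to Gs, had 29.6, 24.05, 47.0 and 20.4 CPM in Pvalb-score nuclei, highest in library 3, and 50.8 CPM in other interneurons. Its log2 ratio was 2.41 against Sst-like and -2.40 against Vip-like nuclei. Htr2b was at 0.07, but it lies within Psmd1 on the other strand. Htr1a, Htr1b, Htr1d, Htr5a and Htr6 had 2, 8, 5, 12 and 3 UMIs in all Pvalb-score nuclei. Htr3a, the ionotropic receptor of caudal-origin interneurons, had 0 UMIs, against 40 in Vip-like nuclei. Taken against a floor of 3 UMIs over the group, it was at least 27.4-fold lower than in Vip-like nuclei.

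**Figure D4:**
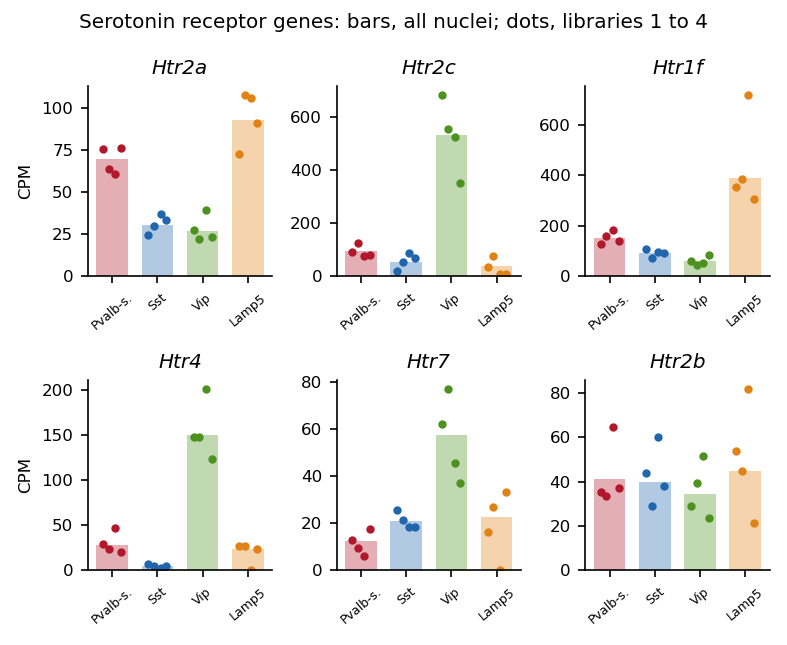
CPM (y axis, linear) of the 6 serotonin receptor genes with enough UMIs, with bars for all nuclei and points for libraries 1 to 4, in Pvalb-score nuclei (Pvalb-s.) and in the Sst-like, the Vip-like and the Lamp5-like nuclei. Htr2a is at 60.9 to 76.4 CPM in the Pvalb-score nuclei, above every Sst-like and Vip-like point, while Htr2c is highest in the Vip-like nuclei (531 CPM over all libraries).

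Downstream of such receptors, 15 of 20 genes of Gq signalling could be assessed, with 2 past 2-fold higher, 3 lower and a median of 0.16. The high ones were the inositol trisphosphate receptor genes Itpr1 at 1.13 and Itpr2 at 1.59, which release calcium from stores. The phospholipase gene Plcb1 was at 0.16. Trpc5, a receptor-operated cation channel, had 9.15 CPM against 178 CPM, a log2 ratio of -4.29 (95% counting interval -4.80 to -3.81), and was past 2-fold lower against every class. The diacylglycerol kinase gene Dgkb was lower at -1.84.

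Of 25 other neuromodulator receptors 13 could be assessed, with 1 past 2-fold higher, 6 lower and a median of -0.28. Oprd1, the delta opioid receptor, had 127, 132, 138 and 141 CPM in Pvalb-score nuclei and 34.3, 33.7, 40.6 and 42.7 CPM in other interneurons, a log2 ratio of 1.85 (95% counting interval 1.63 to 2.07). Its mu counterpart Oprm1 had 15.4, 36.6, 27.9 and 22.6 CPM against 106, 152, 129.8 and 116 CPM, a log2 ratio of -2.29 (95% counting interval -2.60 to -1.99). The 2 opioid receptor genes thus lay on opposite sides in every library, Oprd1 higher and Oprm1 lower. By class, Oprd1 stood at 5.47 against Vip-like and 3.96 against Lamp5-like nuclei, with 3.04 and 8.67 CPM there. Most of its UMIs in the other interneurons were thus in Sst-like nuclei, which came nearest. Cnr1, the cannabinoid receptor of cholecystokinin interneuron terminals, had 23.0 CPM against 253 CPM. The orexin receptor gene Hcrtr2 was lower at -4.59, the nicotinic subunit Chrna7 at -2.73, the muscarinic receptor Chrm3 at -1.62 and the adrenergic receptor Adra1b at -1.42. Chrm3 was at 0.01 against Lamp5-like nuclei, so its ratio came from the Sst-like and Vip-like nuclei.

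Immediate early genes, which follow recent activity, were sparse 24 h after injection and none was past 2-fold higher. Of 20 genes 11 could be assessed, 3 were lower and the median was -0.34. Npas4 had 7.42 CPM against 18.0 CPM and Nr4a1 had 22.0 CPM against 51.3 CPM, log2 ratios of -1.28 and -1.22. Npas4 stood at -0.93 without library 1, and Nr4a3, at -1.02, was no longer past 2-fold without any 1 of the 4 libraries. Fos, Arc and Egr1 were at -0.57, -0.18 and -0.49. Of 20 genes induced later by activity 11 could be assessed, with 0 higher, 4 lower and a median of -0.38. They were the sorting receptor Sorcs3 (-3.26), the growth factor Igf1 (-4.33), the prohormone convertase Pcsk1 (-1.80) and the activin subunit Inhba (-1.18). Igf1 had 9.15 CPM in Pvalb-score nuclei, against 411 CPM in Vip-like, 184 CPM in Lamp5-like and 56.7 CPM in Sst-like nuclei. None of the 7 glucocorticoid response genes that could be assessed of 10 was past 2-fold, with a median of -0.19.

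Growth factor signalling included several high genes. Of 19 neurotrophin and neuregulin genes 10 could be assessed, with 3 past 2-fold higher, 1 lower and a median of 0.08. Ntrk3, the receptor of neurotrophin-3, had 1252, 1549.6, 1326 and 1319.6 CPM in Pvalb-score nuclei and 323, 354, 382 and 251 CPM in other interneurons, a log2 ratio of 2.11 (95% counting interval 2.03 to 2.18), past 2-fold against each class. Gfra1, the co-receptor of GDNF, had 31.6 CPM against 6.19 CPM. Egfr had 2.22 CPM against 172 CPM, through the Vip-like and Lamp5-like classes, since Sst-like nuclei had 0.564 CPM.

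Of 47 synaptic adhesion genes 43 could be assessed, with 5 past 2-fold higher, 5 lower and a median of 0.05. Cntnap4, a contactin-associated protein of interneuron terminals, had 869.6, 909, 955 and 810.1 CPM in Pvalb-score nuclei against 269.8, 268, 234 and 188 CPM in other interneurons, a log2 ratio of 1.87 (95% counting interval 1.79 to 1.96). Plcxd3, Lrrc4c, Il1rapl1 and Cntn5 were higher at 2.01, 1.41, 1.20 and 1.01. Elfn1, which recruits presynaptic receptors at excitatory inputs of Sst cells, was lower with 5.69 CPM against 122 CPM. Sdk2, Dscam and Ptprf were lower at -2.54, -1.94 and -1.44. Of 20 genes of the axon initial segment and nodes 17 could be assessed, with 1 on each side and a median of 0.02. Both are intracellular fibroblast growth factors that bind sodium channels, Fgf12 with 4349 CPM against 2028 CPM, and Fgf13 at -1.20. Fgf13 had 3955 CPM in Lamp5-like nuclei and stood at 0.18 with them left out.

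**Figure D5:**
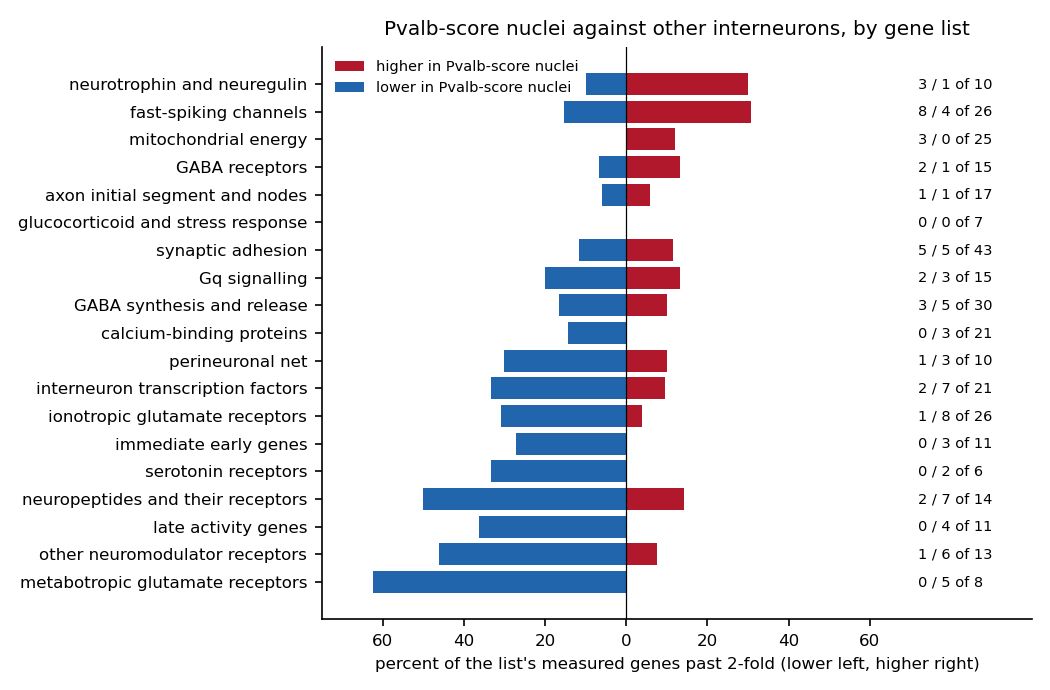
For each of the 19 lists (rows), the percent of assessed genes past 2-fold higher (right of 0) or lower (left of 0) in Pvalb-score nuclei than in the other interneurons, with the counts higher, lower and assessed at the right. By count, fast-spiking channels have the most on the high side (8 of 26) and ionotropic glutamate receptors the most on the low side (8 of 26).

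Against the other gated nuclei, the comparison group of the selection rule, 431 of 12610 genes were past 2-fold higher (3.42%) and 1546 lower (12.3%). Among genes with at least 500 UMIs and outside the marker lists, those furthest on the high side were Syt2 at 3.33, Frmpd1 at 3.10, Cemip at 3.05, the cytokine receptor Flt3 at 2.61 and Slit2 at 2.56. Flt3 had 85.8 CPM in Pvalb-score nuclei against 14.1 CPM. Of the 29 fast-spiking channel genes 9 were past 2-fold higher and 5 lower, with a median of 0.62 against -0.11 over all genes. On the low side, Cnksr3 and Meis1 had 0 UMIs in Pvalb-score nuclei and were at least 45.2-fold and at least 41.3-fold lower against the floor of 3 UMIs over the group. Some ratios differed from those against the interneurons: Bcan was 0.34 and Kcna1 0.47 here, and Tnr was -0.80.

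By the same limit, the high side against Sst-like nuclei was led by Sox5os4 (3.77), Frmpd1 (3.71), Cemip (3.69), Sox5 (3.52) and the cadherin Cdh20 (3.40). Against Vip-like nuclei Sox6, Slit2 and Oprd1 stood at 6.73, 5.53 and 5.47. Against Lamp5-like nuclei Slit2, Satb1 and the syntaxin-binding gene Stxbp6 stood at 4.99, 4.35 and 4.28. Sox5os4 overlaps Sox5 on the other strand. The same holds for many genes named here, such as Syt2, Esrrg, Slit2, Scn9a, Oprm1, Ntrk3 and Cntnap4, which overlap an annotated gene on the opposite strand, and whether the counting used strand is not given in the sources used here, so reads of such pairs cannot be told apart.

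The 197 Pvalb-like nuclei below the score boundary differed from the Pvalb-score nuclei in few genes. Against them, 19 of 7432 genes were past 2-fold higher (0.256%) and 42 lower (0.565%), and none of the 26 fast-spiking channel genes was, with a median of 0.18. Slit2 had 693 CPM in these nuclei against 752 CPM in Pvalb-score nuclei. The 19 included Gfra1 (1.74), Syt2 (1.21), the adhesion gene Sdk1 (1.12) and Frmpd1 (1.09). Syt2 had 87.5 CPM in Pvalb-score nuclei, 37.9 CPM in Pvalb-like nuclei below the boundary and 3.24 CPM in other interneurons. Lower in Pvalb-score nuclei were Trpc5 (-2.37), the phosphodiesterase Pde4b with 70.2 CPM against 346 CPM, the vesicle protein Synpr with 62.5 CPM against 207 CPM, Oprm1 (-1.31), Gabra2 (-1.30) and Sorcs3 (-1.04).

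The 380 nuclei also varied among themselves along the score. Between the 190 with the higher and the 190 with the lower scores, 7 of 5921 genes were past 2-fold higher (0.118%) and 40 lower (0.676%). In the upper group Htr2c had 131 CPM, against 59.9 CPM in the lower group, and it was one of the 7. Oprm1 had 6.02 CPM against 44.8 CPM, Grm8 had 18.6 CPM against 100.3 CPM, and Kcnt2 had 32.6 CPM against 94.98 CPM. These 3 genes were also lower in the Pvalb-score nuclei than in the other interneurons. The members outside the Pvalb-like cluster all scored under 1.0, below the median member score of 1.106, so all were in the lower group. Their part in these differences was not tested. The cell adhesion gene Ncam2 stood at -1.57 and the transcription factor Tox at -1.81.

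Counting intervals of some genes did not overlap between libraries. The highest and lowest library were picked per gene, which makes a lack of overlap more frequent than for a fixed pair. No such count was made over all genes. Of 300 listed genes with at least 50 UMIs in Pvalb-score nuclei, 115 had counting intervals that did not overlap between the highest and the lowest library, and for 31 these libraries also differed at least 2-fold. The other interneurons showed such a spread too, with 156 of 347 listed genes not overlapping and 26 of them also at least 2-fold apart. Library 3, the smallest, was the lowest for 24 of the 31. Its Pvalb-score nuclei had the highest median depth, 13120 UMIs, and the lowest median share of mitochondrial UMIs, 0.462%. Cox4i1 had 166, 168, 102 and 254 CPM in the Pvalb-score nuclei of libraries 1 to 4, and 166, 176, 92.6 and 251 CPM in the other interneurons of the same libraries. The order of the libraries was the same in both groups for Cox4i1, with library 3 lowest and library 4 highest. Of the high genes described above, Gabrd was among the 31 (37.5 to 103 CPM), while Kcnc2, Ppargc1a, Esrrg and Oprd1 differed by less than 2-fold over the libraries. The part of animal, sex, treatment and library preparation in these differences was not tested.

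The reporter was rare in these nuclei. A UMI of the TREmcherry feature was found in 40 of 380 Pvalb-score nuclei, 10.5% (exact 95% interval 7.63% to 14.1%), and in 66 of 725 other interneurons, 9.10%. By library the shares were 2.02%, 18.4%, 5.45% and 13.3% in Pvalb-score nuclei and 2.27%, 12.4%, 5.0% and 14.4% in other interneurons, with library 1 lowest in both. In microglia-like nuclei, at a median of 2417 UMIs, the share was 5.27%, and in oligodendrocyte-like nuclei 4.01%. With every nucleus thinned to 1500 UMIs, which also left out 55 microglia-like nuclei, the share was 2.11% in Pvalb-score nuclei (0.913% to 4.11%), 1.93% in other interneurons, 2.52% in oligodendrocyte-like and 3.23% in microglia-like nuclei. At equal depth the TREmcherry share was thus not above that of the glial nuclei. Thinning did not equalise RNA from other cells, as Slc17a7 then had a UMI in 12.6% of Pvalb-score and 25.9% of oligodendrocyte-like nuclei. Whether the TREmcherry UMIs are background was not tested. The tTA feature had a UMI in 17 Pvalb-score nuclei, 4.47% (2.63% to 7.07%), and after thinning in 1.05% of them, against 0.691% of other interneurons 1.01% of microglia-like, 0.419% of oligodendrocyte-like and 0.406% of excitatory-like nuclei. The thinned share rested on 4 Pvalb-score nuclei.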

How the data were processed

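Nuclei were isolated from microdissected medial prefrontal cortex and sequenced with the 10x Genomics 3' v3.1 chemistry, per the labels' protocols. The deposited matrix holds UMI counts, not normalized, for 32287 features and 22402 barcodes. Cell Ranger 7.1.0 and the mm10 build are named in the submitters' processing notes. How reads were assigned to strands and introns is not given in the sources used here. All deposited count columns belong to this series.

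The members and gene lists were chosen with earlier results of these data known. Members and other gated nuclei were found by the stated rule. Retained nuclei were clustered in scanpy 1.11.5 (Python 3.11.15, numpy 2.4.6, scipy 1.17.1) with 2000 variable genes, 30 principal components, 15 neighbours and Leiden resolution 1.0. Listed genes that were not also cell type markers were kept out of the variable genes. Mitochondrial genes, several sex-linked genes and the transgene features were kept out too. Clusters were named from marker lists, and nuclei with a Scrublet score above 0.25 were put in no class. Counts were summed over each class and library, and divided by the total to give CPM. Ratios have exact conditional binomial intervals, and shares have Clopper-Pearson intervals, at 95%. They cover counting error only. No p-value was computed, because the members and clusters were chosen on these same nuclei and the barcodes do not name an animal or sample. The ratio step was tested on simulated data. Genes named were the score and gate genes, up to 5 past-fold genes on each side of each list, the receptor, channel, net and calcium-binding genes with at least 50 UMIs, and the 12 largest ratios on each side among genes with at least 500 UMIs. A few genes outside this rule, among them Acan, Calb2, Slc32a1, Cox4i1, Cox6a2, Gria4, Grm5, Plcb1 and the lineage factors, were added after their values were seen. Alternatives were other gates, mitochondrial limits, UMI minimums, thinning to 1500 UMIs, TMM scaling in edgeR 4.0.16 and leaving out each library. Of 32287 features, 32158 matched GENCODE M21, and promoters came from RefSeq on GRCm38.p6. Some genes of the lists are not reported here by name.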

Additional observations from a re-analysis of the deposited data

How the results depend on the processing

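No paired analysis was possible because no result comes from a test, but both sides of each comparison came from the same 4 libraries and a call needed one direction in all 4. Against the other interneurons, the 128 named genes gave 1267 values under the alternatives, of which 1165 stayed on the same side of the 2-fold limit, 100 were no longer past it and 2 reversed. In every setting that gave them a value, 73 genes were past the limit. A gene with no UMI in a group gave no value in that setting, which happened for some genes after thinning. Both reversals, Fgf13 at 0.18 and Hapln1 at 0.22, came with the Lamp5-like nuclei left out, an alternative chosen after seeing the data. Against the other gated nuclei, 158 genes gave 2661 values, 2367 on the same side, 278 no longer past and 16 reversed. Of these 158 genes, 38 were past the limit in every setting that gave them a value. Thinning to 1500 UMIs left 136 genes higher and 206 lower against the other interneurons, with fewer genes reaching 100 UMIs, and 1008 lower against the other gated nuclei. A minimum of 20 UMIs gave 660 higher and 2532 lower there. Leaving out 1 library gave 309 to 322 higher and 493 to 521 lower against the interneurons, and 389 to 450 higher and 1367 to 1480 lower against the gated nuclei.

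A gate on Gad1 and Gad2 without Erbb4 left 647 genes lower, and put Itpr2 at 0.60 and Tsc22d3 at 0.32, reversed against the other gated nuclei. With at most 1% mitochondrial UMIs, 617 gated nuclei remained, so a fixed 380 took in other classes and shared 126 nuclei with the members. The lower count was then 313, and the ratios against gated nuclei reversed for Cnr1 (0.14), Elfn1 (0.89), Frem1 (0.59), Gabrg1 (0.32), Grin3a (1.02), Homer3 (0.47), Igf1 (0.15), Npas1 (1.16), Nr2f2 (0.89), Plpp4 (0.063), Ptprz1 (0.012), Shisa6 (0.47) and Trhde (1.36). Thinning reversed Gadd45b at 0.21. TMM scaling, run against the other gated nuclei, moved every log2 ratio by 0.07. Without Pvalb in the score, 359 of the 380 members were shared.

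Several calls against the other interneurons were lost without 1 library, mostly where UMIs came under 100. Kcnab3, Itpr2, Nr4a3 and Grm4 were lost without any 1 library. Cckbr, Slc6a11, Necab2, Cacng3, Cntn5, Tac2, Vamp1, Gfra1 and Rims3 were lost without at least 1. Etv1 stood at 0.61 without library 4, and Ptprz1 at -0.95 without library 2 and -0.98 without library 4.

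The TREmcherry share was 2.11% of Pvalb-score nuclei and 1.86% of other gated nuclei after thinning, 1.84% and 0.601% at 2 UMIs or more, and 7.80% to 13.5% and 4.53% to 9.37% without 1 library. The tTA share was 1.05% and 0.454% after thinning, 0.526% and 0.300% at 2 UMIs or more, and 3.90% to 5.16% and 1.69% to 2.80% without 1 library. Depth limits rare genes: 380 nuclei held 4045155 UMIs, so 3 UMIs are 0.742 CPM, and genes such as Acan, Adamts15 and Hapln4 could not be assessed against the other interneurons.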
